A study of Oncorhynchus mykiss with 525 samples.

Results

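RTgill-W1 is a continuous epithelial-like cell line from the gill of rainbow trout (Oncorhynchus mykiss). The wells described here are those that received the 2 highest concentrations of the chemical coded dic. They are 6 of the 501 wells of the series with counts, 3 at the concentration labelled 41.79 (conc 1) and 3 at 13.93 (conc 2). These 6 wells were picked by their labels of chemical and concentration, with earlier results of these data known. They were set against the 12 wells at the 4 lowest dic concentrations, labelled 0.02, 0.06, 0.17 and 0.52 (conc 8, 7, 6 and 5), and against the 15 DMSO solvent wells of the same 3 plates. Wells of a second chemical on these plates, coded mbz, were also compared, 6 at its conc 1 and 2 (38.14 and 12.71) and 12 at its conc 5 to 8. All groups were the same cell line, exposed for 24 h in 96-well plates, with 1 cell passage per plate. The dic wells at 4.64 and 1.55 were left out because of their low totals, of 9060 to 127407 counts. The labels give neither the unit of concentration nor the full name of dic, and they do not say whether dic was dissolved in DMSO or in water.

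The gill is the main surface through which a fish exchanges gases and ions with water, and it is where many dissolved chemicals first meet living cells. Gill cells answer such contact by changing the transcripts of detoxifying enzymes, chaperones, stress regulators and the cell cycle. Cells of this line are exposed in vitro to estimate toxicity to fish without using animals. The study exposed them to 20 chemicals, pesticides among them, in serial dilutions to find the concentration at which transcripts start to change. Rainbow trout descends from an ancestor whose genome was doubled, so that many of its genes have a near-identical copy.

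None of the 44260 Ensembl gene IDs in the count tables could be paired with a gene name, so genes are given here by ID or by rank, with no role. For the same reason the markers of gill epithelium and of other cell types were not examined, and 0 members of the stress, detoxification and cell cycle lists could be counted.

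The dic wells at the highest concentrations held more counts than their references. Total counts were 786151, 668591 and 518040 at conc 1 on plates 1, 2 and 3, and 682648, 758950 and 578553 at conc 2. The dic wells at the 4 lowest concentrations held 179529 to 473190 counts, with a median of 284358, and the solvent wells 158258 to 506267, with a median of 299140. Each of the 6 wells at the 2 highest concentrations therefore exceeded every well of both references. The number of gene IDs with at least 1 count was 17176 to 22357 at conc 1 and 17746 to 21845 at conc 2, against 11572 to 18552 at the 4 lowest concentrations and 10326 to 17957 in solvent wells. The 4 most counted IDs took 41.3% to 47.4% of counts at conc 1 and 42.6% to 51.2% at conc 2. They took 38.5% to 52.4% at the 4 lowest concentrations and 41.6% to 59.5% in solvent wells, so these shares overlapped. In a lysed well the number of cells, the RNA per cell and the share of the pool that was sequenced cannot be told apart.

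**Figure D1:**
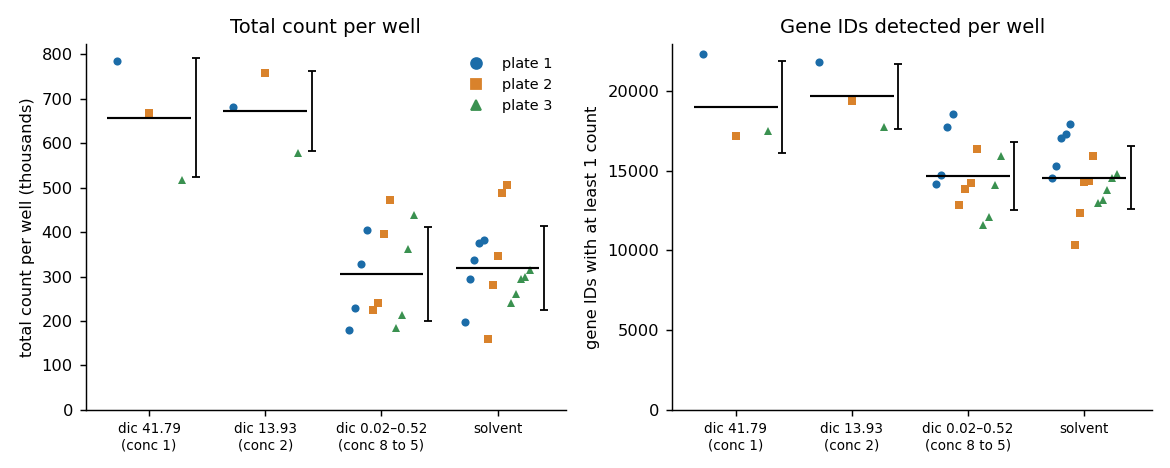
Total count per well, on an axis marked in units of 1000 counts (left), and number of gene IDs with at least 1 count (right) for dic at 41.79, dic at 13.93, dic at 0.02 to 0.52 and solvent. Points are wells, coloured by plate, horizontal lines are means and vertical bars are 1 SD (n = 3, 3, 12 and 15). The lowest of the 6 wells at 41.79 and 13.93 holds 518040 counts, and no other well drawn here exceeds 506267.

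Layout limits each of the comparisons. The dic wells of all concentrations were pooled in libraries 17, 21 and 25, and the solvent wells of the same plates in libraries 14, 18 and 22. Conc 1 stood in plate row 8 and conc 2 in row 7, counted from the top. The 4 lowest concentrations stood in rows 1 to 4 and the solvent wells in rows 1 to 5. Treatment at conc 1 or conc 2 and plate row therefore cannot be told apart, within dic or against solvent. Differences are log2 fold changes from edgeR's quasi-likelihood test with plate as a block, and a gene was called at a Benjamini-Hochberg FDR below 0.05 over 4327 genes. Levels are CPM after TMM scaling, which takes most genes as not changed (scaled CPM below).

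Conc 1 against solvent gave few but mostly higher genes. Of 4327 genes, 16 were called (0.37%), of which 14 rose and 2 fell. An unadjusted p under 0.05 was found for 255 genes, little above the share of 0.05 expected when no gene differs. The absolute log2 fold changes of the 16 ran from 0.32 to 3.82 with a median of 1.19, against a median of 0.20 over all genes. The 3.82 belongs to a gene at 0 in 14 of the 15 solvent wells, described below. At least 2-fold differences were found for 11 of the 16. All 16 had the same direction on each of the 3 plates. They were called from these same wells, so this is no independent evidence. Expression lay above every solvent well in all 3 wells for 7 genes, or 0.162% of those tested, and for 6 of the 16 called. It lay below every solvent well for 0 genes. The share expected from a random order of wells was not computed, here or below, so such counts are no finding by themselves. The call count was lower with any plate left out, with 5 genes without plate 1, 7 without plate 2 and 10 without plate 3. Leaving out a plate also removes a conc 1 well, and the part of that loss was not tested. All 16 genes kept their direction in each of these fits, which share wells with the main fit. DESeq2 called 16 genes that rose and 7 that fell.

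The balance between rises and falls against solvent differed in thinned wells. With every well thinned to 158258 counts, 2156 genes could be tested and 15 were called, of which 5 rose and 10 fell. Of the 16 genes called at full depth, 13 were still tested, all 13 kept their direction and 5 were called. Thinning matched the totals and also left fewer genes to test, so the part of each in this difference was not tested.

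The gene with the smallest p at conc 1 was separated from solvent on all 3 plates. Its scaled CPM was 382, 606 and 664 in the conc 1 wells of plates 1, 2 and 3, 151, 151 and 183 in the conc 2 wells, and 136 to 266 in solvent wells with a median of 161. The 3 conc 1 wells lay above every solvent well, and the conc 2 wells lay within the solvent range. It averaged 551 ± 149 at conc 1 (SD, n = 3), against 178 ± 41.0 at the 4 lowest concentrations (n = 12) and 176 ± 42.7 in solvent wells (n = 15). It rose by 1.62 on the log2 scale against solvent (SE 0.14, edgeR FDR 1.77e-13) and by 1.58 against the 4 lowest concentrations (SE 0.14, edgeR FDR 1.84e-12). Over 12 alternative settings the log2 fold change against solvent ran from 1.35 to 1.88, and the largest FDR was 2.18e-07. Here and below, 1 of these settings, keeping all wells, repeated the main fit, since no well compared had too low a total.

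ENSOMYG00000036395 was the most highly expressed of the genes given by ID. Its scaled CPM was 2748, 3147 and 3452 at conc 1 on plates 1, 2 and 3 and 2123, 2165 and 2200 at conc 2. The 4 lowest concentrations gave 1876 to 2173 with a median of 2023, and solvent wells gave 1677 to 2406 with a median of 1925. All 3 conc 1 wells exceeded every other well, while the conc 2 wells lay inside the solvent range. ENSOMYG00000036395 rose by 0.69 at conc 1 against solvent (SE 0.08, edgeR FDR 1.25e-08) and by 0.64 against the 4 lowest concentrations (SE 0.08, edgeR FDR 4.96e-07). At conc 2 its log2 fold change against solvent was 0.16 (SE 0.08, edgeR FDR 0.998). The call at conc 1 held in all 12 alternative settings, with log2 fold changes of 0.54 to 0.90.

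ENSOMYG00000004106 was higher at both of the highest concentrations, but not on every plate to the same extent. Its scaled CPM was 151, 239 and 76.7 at conc 1 on plates 1, 2 and 3 and 174, 202 and 72.4 at conc 2. The 4 lowest concentrations gave 31.6 to 121 with a median of 48.5, and solvent wells 33.6 to 99.9 with a median of 67.4. On plates 1 and 2 the treated wells lay above both references, and on plate 3 both lay inside the full range of each reference. It rose by 1.22 at conc 1 (SE 0.23, edgeR FDR 0.00100) and by 1.16 at conc 2 (SE 0.23, edgeR FDR 0.00774) against solvent. Without plate 1 the conc 1 value against solvent was 1.07 (edgeR FDR 0.250) and without plate 2 it was 0.85 (edgeR FDR 0.603), so the call rests on these plates. At conc 2 the call against solvent was lost without either plate and also with DESeq2 (FDR 0.0777), with summed solvent wells (edgeR FDR 0.110) and in thinned wells (edgeR FDR 0.139).

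The 2 genes that fell at conc 1 against solvent differed in what the low concentrations showed. ENSOMYG00000044518, given because it was the other of these 2 and so chosen after its values were seen, had 0, 13 and 0 counts at conc 1 on plates 1, 2 and 3. A count of 0 allows up to 3.71 scaled CPM on plate 1 and 6.39 on plate 3, taking 3 counts as the limit and covering counting error only. Scaled CPM was 48.8, 61.9 and 44.8 at conc 2, 0 to 72.1 with a median of 49.8 at the 4 lowest concentrations, and 0 to 87.2 with a median of 54.6 in solvent wells. One of the 12 low wells and 1 of the 15 solvent wells were also at 0, so the ranges overlapped. Among the mbz wells of the same libraries, conc 2 on plate 2 and conc 7 and 8 on plate 1 also held 0 counts. ENSOMYG00000044518 fell by 2.87 against solvent (SE 0.55, edgeR FDR 0.00155) and by 2.73 against the 4 lowest concentrations (SE 0.56, edgeR FDR 0.00292). Without plate 1 the values were -2.16 against solvent (edgeR FDR 0.253) and -2.11 against the 4 lowest concentrations (edgeR FDR 0.332), and in thinned wells -1.90 (edgeR FDR 0.351) and -1.80 (edgeR FDR 0.408), so both calls were lost. The plate 2 well holds all 13 counts, and without it conc 1 is at 0 in every well, so that no fold is given for that setting.

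ENSOMYG00000031628 had 56.9, 73.0 and 34.1 scaled CPM at conc 1 on plates 1, 2 and 3 and 65.5, 54.0 and 51.7 at conc 2. The 4 lowest concentrations gave 36.5 to 95.2 with a median of 65.5, and solvent wells 38.8 to 174 with a median of 161. The solvent wells spread over both low and high values, and the dic wells of the 6 concentrations used stayed at or under 95.2 scaled CPM. It fell by 1.17 at conc 1 against solvent (SE 0.27, edgeR FDR 0.0211), and it fell by 0.90 at the 4 lowest concentrations against solvent (SE 0.18, edgeR FDR 0.00222). Against the 4 lowest concentrations the conc 1 value was -0.27 (edgeR FDR 0.987), and library and treatment cannot be told apart for the difference from solvent. The call at conc 1 was lost without the plate block (edgeR FDR 0.140), without plate 1 (edgeR FDR 0.634), without plate 3 (edgeR FDR 0.160) and in thinned wells (edgeR FDR 0.325).

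**Figure D2:**
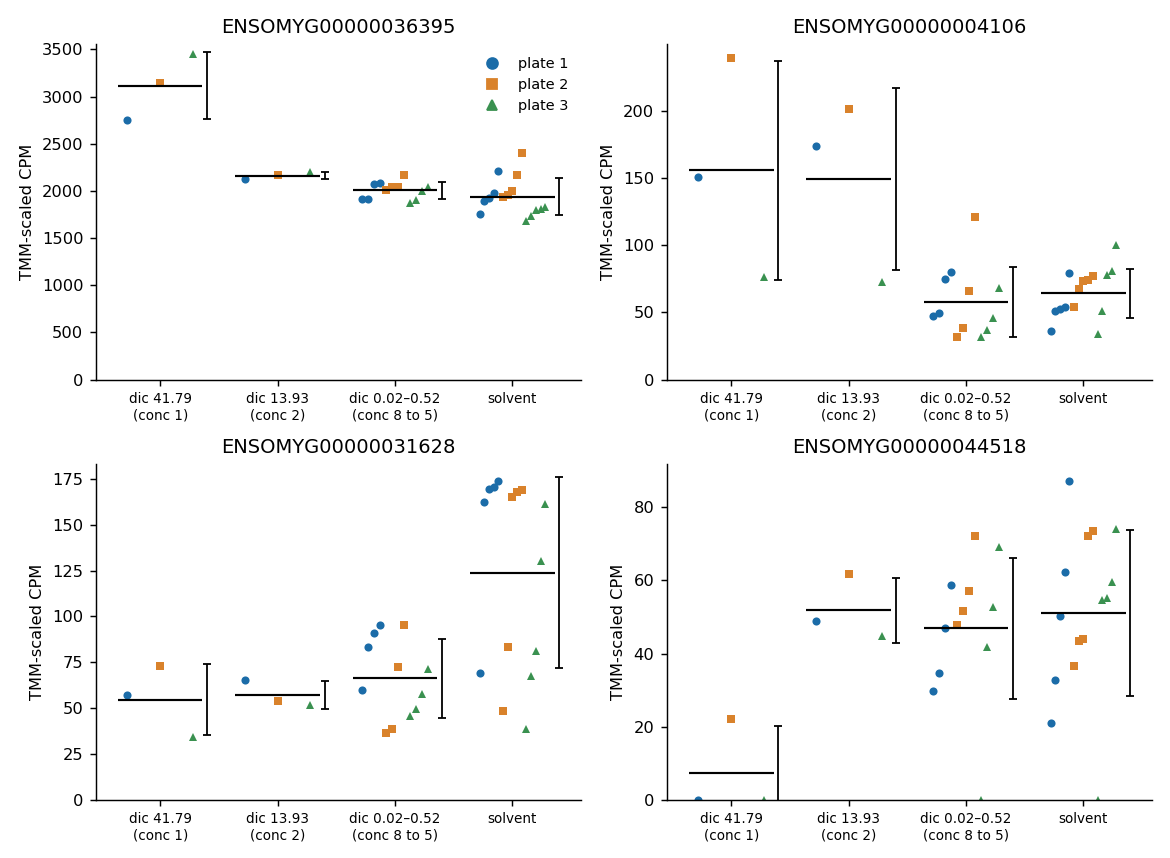
TMM-scaled CPM per well of ENSOMYG00000036395, ENSOMYG00000004106, ENSOMYG00000031628 and ENSOMYG00000044518 for dic at 41.79, dic at 13.93, dic at 0.02 to 0.52 and solvent. Points are wells by plate, horizontal lines are means and vertical bars are 1 SD (n = 3, 3, 12 and 15). For ENSOMYG00000036395 the wells at 41.79 (2748 to 3452) lie above all others, while for ENSOMYG00000031628 all dic groups lie below the solvent median of 161.

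A single gene gave the largest fitted rise at conc 1 from few counts. It had 53, 18 and 31 counts in the conc 1 wells of plates 1, 2 and 3, and 0 in all 3 conc 2 wells. It was at 0 in 10 of the 12 wells at the 4 lowest concentrations and in 14 of the 15 solvent wells, and the remaining solvent well held 22 counts. The 2 low-concentration wells above 0 held 10 and 20 counts. In scaled CPM the conc 1 wells held 65.5, 30.6 and 66.0, against 45.8 and 59.8 in those 2 low wells and 70.9 in that solvent well, so all 3 overlapped with conc 1. Its call against solvent was lost without plate 1 (edgeR FDR 0.318), without plate 2 (edgeR FDR 0.306), without the plate block (edgeR FDR 0.174) and with summed solvent wells (edgeR FDR 0.184). Its fitted log2 fold change is the 3.82 at the top of the range given above. With most solvent wells at 0, that value is not a reliable size.

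The wells of the same libraries at low concentrations gave a similar number of calls at conc 1. Against conc 5 to 8, 14 of 4327 genes were called (0.324%), of which 11 rose and 3 fell, and 25 genes did not overlap between the groups (0.578%), 22 above and 3 below. Of the 14 called genes, 9 were among the non-overlapping ones. Both references share the conc 1 wells, so calls against both form a stricter rule and no independent evidence. By that rule 9 genes were called at conc 1 (0.208%), of which 8 rose and 1 fell. Among these 9, the log2 fold changes against solvent ran from -2.87 to 1.65 with a median of 1.31, and those of conc 5 to 8 against solvent from -0.29 to 0.28 with 0 called. DESeq2 called all 9 against each reference. Thinned wells gave 10 calls against conc 5 to 8, 6 rises and 4 falls. In them 8 of the 9 could be tested, all 8 kept their direction, and 5 were called against solvent and 4 against conc 5 to 8.

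Of the 14 genes called against conc 5 to 8, 4 were also called between conc 5 to 8 and solvent, 2 in each direction. Their log2 fold changes were -1.28, -0.77, 0.77 and 0.35 for conc 5 to 8 against solvent. For conc 1 against solvent they were 0.53, 0.31, 0.08 and -0.29, with none of the 4 called. At conc 1 against conc 5 to 8 the first 2 were rises and the last 2 falls. The background comparison of conc 5 to 8 with solvent gave 34 calls among 4327 genes (0.786%), 17 in each direction. Of these calls 3 were at least 2-fold, and the absolute log2 fold changes had a median of 0.47. These 34 calls, with 12 dic wells in the test, stand beside 16 for conc 1 against solvent, with 3 wells. The order of these counts turned in thinned wells (14 against 15), with summed solvent wells (8 against 12) and without the filter on low counts (26 against 42), and without the plate block both were 10. Of those 34 genes, 1 was called at conc 1 against solvent, ENSOMYG00000031628. The 4 most counted IDs were among the 34, all 4 lower at conc 5 to 8 than in solvent. In this background comparison low concentration and library cannot be told apart.

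**Figure D3:**
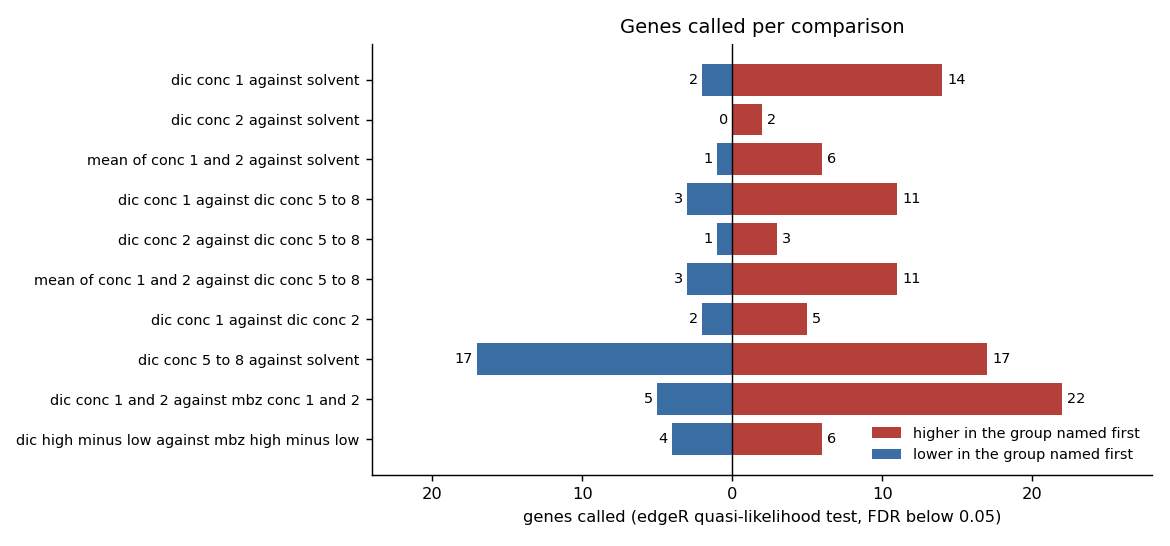
Genes called by edgeR's quasi-likelihood test (FDR below 0.05) in each comparison, with genes higher in the group named first to the right of 0 and lower to the left. Conc 1 gave 14 rises and 2 falls against solvent, conc 2 gave 2 rises, and dic conc 5 to 8 against solvent gave 17 of each.

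At conc 2 hardly any gene passed. Against solvent 2 genes were called (0.0462%) and both rose. An unadjusted p under 0.05 was found for 163 of 4327 genes, under the share of 0.05 expected when no gene differs. No gene that fell was called by edgeR or by DESeq2, which called 1 rise. Against conc 5 to 8, 4 genes were called (0.0924%), 3 that rose and 1 that fell. In thinned wells the calls at conc 2 were 1 rise and 4 falls against solvent, and 2 rises and 9 falls against conc 5 to 8. The genes called against both references at full depth were 2 (0.0462%), both of them rises, and 1 of these was ENSOMYG00000004106. Scaled CPM did not overlap between conc 2 and solvent for 4 genes (0.0924%), 2 above and 2 below, and between conc 2 and conc 5 to 8 for 14 genes (0.324%).

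The gene with the smallest p at conc 2 was high there and not at conc 1. It had 1669, 1937 and 2119 scaled CPM at conc 2 on plates 1, 2 and 3, against 1084, 1242 and 1233 at conc 1 on the same plates and 955 to 1563 in solvent wells. The 3 conc 2 wells lay above every solvent well, and the conc 1 wells lay inside the solvent range. It rose by 0.71 at conc 2 against solvent (SE 0.09, edgeR FDR 5.73e-07) and by 0.70 against conc 5 to 8 (SE 0.09, edgeR FDR 2.42e-06). At conc 1 its value against solvent was 0.03 (SE 0.10, edgeR FDR 0.985). The call at conc 2 against solvent held in all 12 alternative settings, with log2 fold changes of 0.69 to 0.97.

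For the mean of both concentrations, 7 genes were called against solvent (0.162%), 6 that rose and 1 that fell, and 14 against conc 5 to 8 (0.324%), 11 that rose and 3 that fell. DESeq2 called 12 rises and 5 falls against solvent and 13 rises and 9 falls against conc 5 to 8, and thinned wells gave 2 rises and 0 falls, and 8 rises and 12 falls. The 5 genes called against both (0.116%) all rose, with log2 fold changes against solvent of 0.37 to 1.28. ENSOMYG00000004106 rose by 1.19 for this mean against solvent (SE 0.18, edgeR FDR 4.99e-05) and by 1.40 against conc 5 to 8 (SE 0.20, edgeR FDR 6.59e-06). Its value against solvent was 0.98 without plate 1 (edgeR FDR 0.187) and 0.90 without plate 2 (edgeR FDR 0.177), which ends that call. ENSOMYG00000036395 rose by 0.42 against solvent (SE 0.06, edgeR FDR 4.99e-05), although its conc 2 wells lay within the solvent range. Without plate 3 that value was 0.31 (edgeR FDR 0.101).

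The responses at conc 1 and conc 2 were also compared directly, in wells of similar depth. Of 4327 genes 7 were called (0.162%), 5 higher and 2 lower at conc 1, while DESeq2 gave 5 and 1 and thinned wells 6 and 7. The gene with the smallest p at conc 1 against solvent was also first here, higher at conc 1 by 1.74 on the log2 scale (SE 0.19, edgeR FDR 4.76e-09), and it was called in all 12 alternative settings. ENSOMYG00000036395 was higher at conc 1 than at conc 2 by 0.53 (SE 0.11, edgeR FDR 0.00948), and ENSOMYG00000044518 was lower, with -2.86 (SE 0.62, edgeR FDR 0.0156). The gene with the smallest p at conc 2 was lower at conc 1, with -0.68 (SE 0.12, edgeR FDR 0.00102), and its FDR reached 0.0918 over the alternatives. ENSOMYG00000004106 differed by 0.06 (SE 0.28, edgeR FDR 1.00), so a difference was not detectable. Among the 16 genes called at conc 1 against solvent, the conc 2 values against solvent were positive for 10 and negative for 6, with a median of 0.11, and 1 of the 16 was called there.

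The 9 genes called at conc 1 against both references were also followed over the dic concentrations, apart from 4.64 and 1.55, which were left out. At 0.02, 0.06, 0.17 and 0.52 their mean log2 differences from solvent lay between -0.91 and 0.46, with 3 wells per concentration. The lowest of these was that of ENSOMYG00000044518 at 0.17 and the highest that of ENSOMYG00000004106 at 0.06. ENSOMYG00000036395 differed from solvent by 0.04, 0.06, 0.04 and 0.08 at these 4 concentrations, by 0.16 at 13.93 and by 0.68 at 41.79. ENSOMYG00000004106 differed by -0.17, 0.46, -0.45 and -0.60 at the 4 low concentrations, by 1.08 at 13.93 and by 1.12 at 41.79. Since the 9 genes were chosen for differing at 41.79 from both solvent and the 4 low concentrations, neither the height of their last point nor low values near solvent are a finding.

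**Figure D4:**
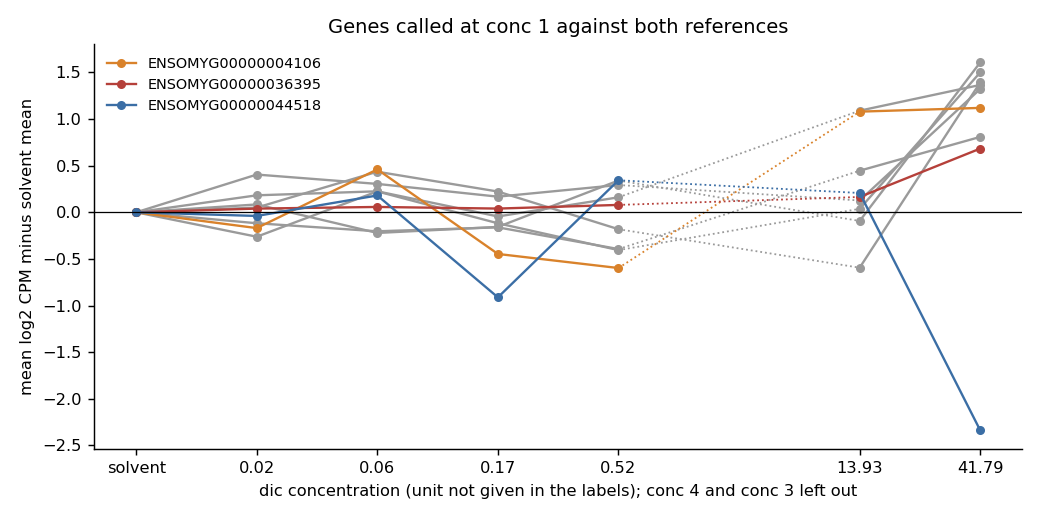
Mean log2 scaled CPM minus the solvent mean for the 9 genes called at 41.79 against both references, from solvent through dic 0.02, 0.06, 0.17, 0.52 and 13.93 to 41.79, with 3 wells per concentration and 15 solvent wells. Points are means and carry no error bars, dotted lines bridge the left-out concentrations, and grey lines are genes given without ID. The values stay between -0.91 and 0.46 up to 0.52, and ENSOMYG00000044518 reaches -2.34 at 41.79.

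The wells of a second chemical, coded mbz, were set beside dic because they stand in the same libraries, plates and rows. Labelled mbz concentrations were 38.14 and 12.71 in those rows, so the concentrations differ, and effects of mbz enter with the opposite sign. Depth also differed, with mbz totals of 135802 to 176699 at conc 1 and 323545 to 412173 at conc 2. Of 5062 genes 27 were called between dic and mbz over both concentrations (0.533%), 22 higher and 5 lower in dic, against 35 and 15 with DESeq2 and 15 and 7 with RLE scaling. Of the 9 genes called at conc 1 against both references 8 were positive here and 4 were called, all 4 higher in dic. This comparison uses the same conc 1 wells through which the 9 were chosen, so these counts are no independent evidence. ENSOMYG00000036395 averaged 3315 ± 361 at dic conc 1 and 2314 ± 35.9 at dic conc 2, against 1900 ± 148 at mbz conc 1 and 2147 ± 81.3 at mbz conc 2 (scaled CPM, SD, n = 3 each), a difference of 0.46 (SE 0.08, edgeR FDR 0.000117). ENSOMYG00000004106 averaged 166 ± 87.9 and 160 ± 72.5 at dic conc 1 and conc 2, against 87.4 ± 15.0 and 72.2 ± 18.1 at mbz conc 1 and conc 2, a difference of 0.99 (SE 0.23, edgeR FDR 0.0178). ENSOMYG00000031628 differed by 0.09 (edgeR FDR 0.965).

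A further contrast set the step from low to high concentration in dic against the same step in mbz, which removes constant differences between the plate columns. It called 10 of 5062 genes (0.198%), 6 positive and 4 negative, against 9 and 11 with DESeq2. The gene with the smallest p at conc 2 was among them, with 0.51 (SE 0.11, edgeR FDR 0.0159). The gene with the smallest p at conc 1 was not, with 0.46 (SE 0.21, edgeR FDR 0.609). High was the mean of conc 1 and conc 2, which dilutes a change at conc 1 alone. Against the 4 lowest dic concentrations this gene gave 1.58 at conc 1 and -0.16 at conc 2. It was called between dic and mbz over both concentrations, with 0.74 (SE 0.17, edgeR FDR 0.0106). Of the 9 genes called at conc 1 against both references, 8 were positive and 1 negative in the second contrast, and 1 of the 8 was called. Among the genes given by ID none was called. ENSOMYG00000036395 gave 0.36 (SE 0.09, edgeR FDR 0.0922) and ENSOMYG00000004106 gave 1.15 (SE 0.31, edgeR FDR 0.110). ENSOMYG00000044518 gave -1.15 (SE 0.63, edgeR FDR 0.757) and ENSOMYG00000031628 gave -0.09 (SE 0.31, edgeR FDR 0.975). With every well thinned to 80536 counts, 3 genes were called between dic and mbz, 0 of them higher in dic, and 2 genes in the second contrast, both negative.

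Expression set how small a change could be called. In conc 1 against solvent the median SE of the log2 fold change was 0.45 among the 1443 least expressed genes, 0.32 among the middle 1442 and 0.19 among the 1442 most expressed. These sets held 1, 5 and 10 of the 16 calls. Changes of 2-fold in weakly counted genes were thus often not detectable at this depth.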

How the data were processed

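The authors deposited whole-number read counts per Ensembl gene ID and well, made from libraries of the QIAseq UPXome kit, which tags each well and pools 24 wells per library, per the labels' protocols and the design text. The sources used here name no aligner, counter, annotation or use of strand, so these are not given here, and the columns hold raw counts as far as the values show. The solvent wells recur in the table of each chemical, so 381 of 882 columns were repeats, of which 0 differed. The 24 wells of 1 chemical were not analysed here.

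Wells under 10% of the median total of the series (240948 counts) were to be left out, and 0 wells of the groups compared fell under that limit. A model in edgeR 4.0.16 (R 4.3.3, limma 3.58.1; TMM scaling, filterByExpr, two-sided quasi-likelihood test) held the conc 1, conc 2, conc 5 to 8 and solvent groups with plate as a block, and a second held dic and mbz. The SE was derived from the fold change and its F statistic. Scaled CPM used the same scaling, and log2 CPM a prior count of 2. The scripts were tested on simulated counts. Figures were drawn with matplotlib 3.10.9 in Python 3.11.15, and tables read with pandas 2.3.3.

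Per the design text and labels, each plate is 1 cell passage, and wells of a plate share its number, which pairs them. To check this, each well's deviation from its group mean was correlated across 2620 genes with those of other groups. The median r was 0.135 on the same plate (0.0549 to 0.170 per plate) and -0.0557 between plates. Dic wells of a plate also share a library, so this check cannot tell passage from library. Deviations from a group mean cancel out within the group, so the value between plates is not independent of the first. The 5 solvent wells of a plate share a passage, so p-values against solvent also rest on spread between wells. The low-concentration dic wells of a plate likewise share a passage and a library. P-values against these low wells, and of them against solvent, carry the same limit. No alternative setting summed the low wells. Wells of the same group differed by more than sampling noise in all 123 pairs (chi-square over its degrees of freedom of 2.01 or more).

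The wells, comparisons and gene lists were chosen with earlier results of these data known. IDs given in the text were those with the smallest p for the mean of both concentrations against solvent, first among genes called against both references, at most 2 per direction, except ENSOMYG00000044518, which was added after its values were seen. Near-identical gene copies can share reads. Among called genes, 5 had another ID whose counts differed by under 5%, none of them given by ID. Some of these were near copies of each other and fell together at conc 5 to 8 against solvent, by -0.30, -0.29, -0.36 and -0.36 on the log2 scale. They were the 4 most counted IDs, with solvent means of 208254, 208960, 74339 and 74628 scaled CPM in the same order. The 34 calls of that comparison may thus count 1 signal more than 1 time. Alternatives were DESeq2 1.42.0, RLE scaling, no filter on low counts, no block, summed solvent wells and thinned wells. The others were the 4 most counted IDs left out, all wells kept, conc 7 and 8 as the low group, and each replicate left out. Keeping all wells repeated the main fit, since no well compared fell under the limit.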

Additional observations from a re-analysis of the deposited data

Results flagged for a closer look

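Between conc 1 and conc 2 of dic, 7 genes differed by edgeR's test of the difference itself (FDR below 0.05). ENSOMYG00000036395 was among them, higher at conc 1 by 0.53 on the log2 scale, and so was ENSOMYG00000044518, at -2.86. Between dic and mbz, the difference between high and low concentrations itself differed for 10 genes by the same kind of test. Plate row and concentration cannot be told apart in the first of these comparisons.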

How the results depend on the processing

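Counts of called genes moved by more than 1.5 times under several settings, and the cause was not tested. Counts are given in the order conc 1, conc 2 and their mean against solvent (16, 2 and 7), the same against conc 5 to 8 (14, 4 and 14), conc 1 against conc 2 (7), conc 5 to 8 against solvent (34), dic against mbz (27), the high-minus-low contrast of dic and mbz (10), and genes called against both references at conc 1, conc 2 and their mean (9, 2 and 5). Without the filter on low counts, the median of all genes shifted by 0.22, 0.25 and 0.24 against solvent, and the counts were 42, 30 and 75, then 45, 36 and 65, 15 for conc 1 against conc 2, 82 and 31 for the mbz contrasts, and 25, 15 and 32 for both references. Without the plate as a replicate block, the pairing removed, conc 1 against solvent gave 10, conc 2 and the mean against conc 5 to 8 gave 2 and 7, conc 1 against conc 2 gave 3, conc 5 to 8 against solvent 10, and the mbz contrasts 6 and 3. DESeq2 gave 1 for conc 2 and 17 for the mean against solvent, 22 for the mean against conc 5 to 8, 52 for conc 5 to 8 against solvent, 50 and 20 for the mbz contrasts, and 1 for conc 2 against both.

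Thinned wells gave 5 for conc 2 and 2 for the mean against solvent, 11 for conc 2 against conc 5 to 8, 13 for conc 1 against conc 2, 14 for conc 5 to 8 against solvent, 3 and 2 for the mbz contrasts, whose medians shifted by -0.19, and 2 for the mean against both. Summed solvent wells gave 25 for conc 1 and 10 for conc 2 against conc 5 to 8, 12 for conc 1 against conc 2, 8 for conc 5 to 8 against solvent and 1 for conc 2 against both, and do not enter the mbz contrasts. With conc 7 and 8 as the low group, conc 2 against it gave 2, conc 2 against both 1, and the mbz contrasts 51 and 46. Leaving out 1 plate at a time gave 5 to 10, 1 to 3 and 3 to 8 against solvent, 9 to 14, 1 to 4 and 7 to 10 against conc 5 to 8, 3 to 5, 13 to 14, 6 to 13 and 1 to 11 for the next 4, and 5 to 8, 1 to 2 and 2 to 3 for both references. RLE scaling and the 4 most counted IDs left out moved no count by more than 1.5 times. Keeping all wells could move none, since no well compared fell under the limit and the fit was the same. No called difference of a gene given by ID or by smallest p changed sign, but uncalled ones did, such as ENSOMYG00000031628 at conc 2 against conc 5 to 8 (-0.20, and 0.15 in thinned wells) and ENSOMYG00000044518 at conc 2 against solvent (-0.01, and 0.65 in thinned wells). Calls of ENSOMYG00000031628 at conc 1 were also lost without the filter (FDR 0.148).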
